A study of Mus musculus with 9 samples.

Results

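The 10 genes described here encode the receptor chain for the cytokine IL7, the kinases and transcription factors that carry its signal, and genes that this signal switches on: Il7r, Jak1, Jak3, Stat5a, Stat5b, Cish, Socs1, Socs2, Socs3 and Pim1. They were chosen by name, out of 22350 protein-coding genes on chromosomes 1 to 19 and X. Each gene was given a window made of its body and 50 kb on either side on the mm9 build, and every peak of CTCF or of the cohesin subunit Rad21 that touched a window by at least 1 bp was kept. Together the windows covered 1.20 Mb and held 319 of the 190262 peaks in 5 lists. When overlapping peaks of different libraries were joined, these were 145 of 83461 sites.

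All cells came from mice on the C57BL/6 background that lacked Rag1, so that no antigen receptor gene was rearranged by the cell itself. CTCF was profiled in bone marrow pro-B cells that had grown for 7 days with IL7, and in pre-B cells of mice that also carried a rearranged IgM transgene (µ+). Rad21 was profiled in the same kind of pre-B cells, in double-negative (DN) thymocytes of Rag1-/- mice without a transgene, and in double-positive (DP) thymocytes of Rag1-/- mice with a rearranged TCRβ transgene. Bone marrow was taken from mice of both sexes at 6 to 14 weeks of age, and thymocytes at 4 to 8 weeks. Because differentiation in these mice is arrested by the loss of Rag1 and moved forward by a transgene, each population stands for 1 stage of a mutant animal, and IL7-cultured pro-B cells differ from pre-B cells in both genotype and culture. CTCF and cohesin peaks do not report expression, so the cell type of each library could not be checked against marker genes here.

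There was 1 library for each antibody and cell type. No test between cell types was therefore possible, and counts and ranks describe these libraries. The lists held 71080 CTCF peaks in IL7-cultured pro-B cells, 42250 in pre-B cells, and 30488, 9701 and 36743 Rad21 peaks in pre-B, DN and DP cells. The number of reads behind them is unknown. The lists ended at different scores, between 50 for the IL7-cultured pro-B CTCF list and 86.45 for the DN Rad21 list, so a site without a peak was one that was not called in that library. Peak scores were compared only within a list, as the percent of that list that scored lower. Intervals on shares are exact 95% binomial intervals and cover counting error only.

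IL7 binds a receptor made of the IL7 receptor α chain, encoded by Il7r, and the common γ chain. Jak1 is bound to the α chain and Jak3 to the γ chain, and once activated they phosphorylate Stat5a and Stat5b, which pair, enter the nucleus and bind palindromes of the form TTCNNNGAA. Early B and T cell progenitors need this signal to survive and divide. Among the genes that Stat5 turns on are Cish and members of the Socs family, which inhibit cytokine receptors and Jak kinases and so close a feedback loop, and Pim1, a kinase that favours survival. CTCF binds DNA through its own motif, and cohesin, the ring that extrudes chromatin loops, is often held where CTCF is bound.

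The sequences that recur below are of 2 kinds. The first are matches to TTCNNNGAA under promoter peaks of Il7r and Cish, with the matches in capitals. They are shown because a Rad21 peak lay over each of them in 1 cell type. The same was true of a match at the promoter of Jak1 and of one at Socs1, each under a DP Rad21 peak, which are not printed. Promoter sites of Stat5a, Cish, Socs1, Socs2 and Socs3 also held matches under peaks of more than 1 library. The upstream sequence of Il7r is the one RefSeq gives on GRCm38.p6, 250 bases that end at the base before the start of transcription, and it was found unchanged in mm9. The other pair was read from mm9 inside the 5′ part of Cish, at chr9:107198985-107199014 and chr9:107199093-107199122 on the plus strand.
Il7r, upstream of the start: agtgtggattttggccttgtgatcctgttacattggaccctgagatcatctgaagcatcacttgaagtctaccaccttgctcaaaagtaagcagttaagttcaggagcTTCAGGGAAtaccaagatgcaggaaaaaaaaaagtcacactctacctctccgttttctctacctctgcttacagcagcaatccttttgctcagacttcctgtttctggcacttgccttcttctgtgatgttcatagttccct
Cish, first pair: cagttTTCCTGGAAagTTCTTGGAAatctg
Cish, second pair: ggTTCTAGGAAgatgaggcTTCCGGGAAgg

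The second kind are matches to the CTCF consensus of 12 bases, the form that the HOMER program found de novo in these cells. For each of 7 genes, 1 match under a pre-B CTCF peak is printed on the strand that matched, with the 12 bases in capitals. They lie on mm9 at chr11:100754875-100754904 in Stat3, beyond the 3′ end of Stat5a, on the minus strand; chr11:100622957-100622986 at Hcrt, beyond the 3′ end of Stat5b, on the plus strand; chr4:100818890-100818919 in Raver2, beyond the 3′ end of Jak1, on the plus strand; chr8:74184849-74184878 in Unc13a, upstream of Jak3, on the plus strand; chr9:107196745-107196774 upstream of Cish, on the minus strand; chr11:117831379-117831408 at the start of Socs3, on the minus strand; and chr17:29651549-29651578 downstream of Pim1, on the plus strand.
Stat5a, site in Stat3: ggtactactGCCCCCTGAAGGgcagagagg
Stat5b, site at Hcrt: tgctttcccGCCCCCTGGAGGcctgaactt
Jak1, site in Raver2: cctaatgctGCCATCTAGTGGgcaaacagt
Jak3, site in Unc13a: gcagagcgcGCCCTCTAGCGGtcgctgaac
Cish, upstream site: gcccacactGCCACCCAGTGGcgatccttc
Socs3, start site: ctccagcgcGCCCTCTGGTGGactcggggg
Pim1, downstream site: tcgccgattGCCACCTAGTGGtcatttgaa

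Every one of the 10 windows held peaks of both CTCF libraries and of Rad21 in pre-B and DP cells, and 9 of 10 held a DN Rad21 peak, the exception being Il7r. Over all protein-coding genes the windows with at least 1 peak made up 91.0% for IL7-cultured pro-B CTCF, 84.7% for pre-B CTCF, and 80.0%, 56.9% and 78.2% for Rad21 in pre-B, DN and DP cells. The median window of the 10 genes held 11 CTCF peaks in IL7-cultured pro-B cells against 7 over all genes, and 6 against 4 in pre-B cells. For Rad21 the medians were 5.5 against 3 in pre-B cells, 2 against 1 in DN cells and 7.5 against 3 in DP cells. The 20 other genes of the pathway that were counted in the same way (such as Il2rg, Jak2, Stat3, Il7 and Mcl1) had medians of 10.5, 6.5, 5, 1.5 and 6.5 in the same order.

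**Figure D1:**
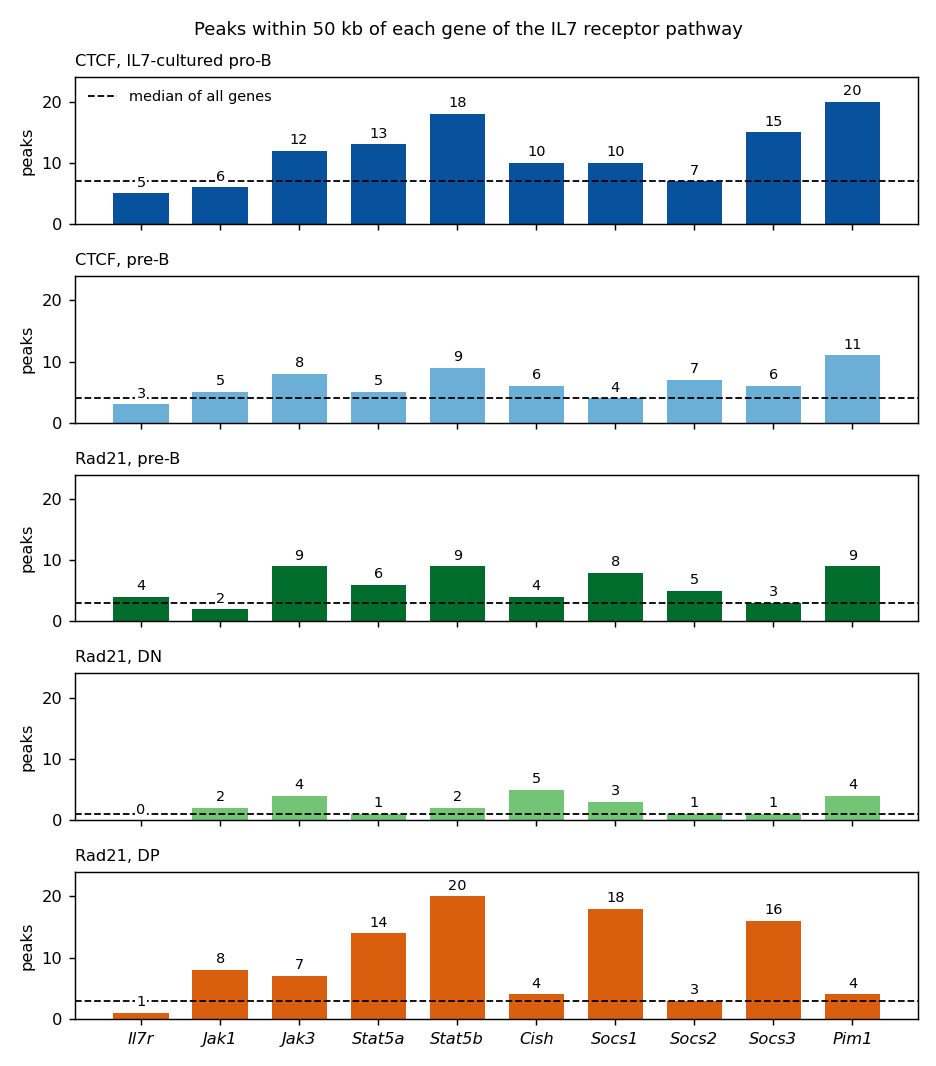
Number of peaks (y axis) in the window of each gene (x axis), with 1 panel for each library and the median of 22350 protein-coding genes as a dashed line. Il7r had the fewest CTCF peaks, 5 and 3, and the DP Rad21 bars ran from 1 at Il7r to 20 at Stat5b.

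A peak within 1 kb of an annotated start was found in IL7-cultured pro-B CTCF for 6 of the 10 genes (38.8% of all genes) and in pre-B CTCF for 5 (27.1%). For Rad21 it was found for 6 in pre-B cells (20.9%), 4 in DN cells (4.57%) and 6 in DP cells (33.0%). Both CTCF libraries had one at 5 genes (25.2%), and all 3 Rad21 libraries at Socs1, Socs2 and Socs3 (3 genes, 4.15%). At Cish the CTCF peaks counted were of different sites. The pre-B one ended 972 bp from the outermost start. The IL7-cultured one lay at an inner start, above 38.2% of its list. The upstream site was called in all 5 libraries. Its pre-B and DP Rad21 peaks ended 1132 and 1043 bp from the outermost start, beyond the 1 kb limit, so neither was counted. Of the 20 other pathway genes, 11 and 5 had a CTCF promoter peak in the same order, and 4, 2 and 9 a Rad21 promoter peak. With 10 genes the intervals on these shares were wide, from 26.2% to 87.8% where 6 of 10 were found. The 4 genes with a DN promoter peak were Cish, Socs1, Socs2 and Socs3, and the interval on 4 of 10 genes ran from 12.2% to 73.8%. With scores of at least 100 Cish dropped out and 3 genes were left. A promoter of 2500 bp added Pim1 and gave 5 genes in DN cells. It gave 7 and 8 genes for Rad21 in pre-B and DP cells, and 6 for each CTCF library. RefSeq has a second start of Pim1, not in the annotation used here, and its promoter lay under a peak of all 5 libraries. When the Rad21 lists were limited to an equal number of peaks, the counts were 3 in pre-B cells, 4 in DN cells and 3 in DP cells, against 5.33%, 4.57% and 7.79% of all genes.

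Il7r, the gene for the receptor α chain (chr15:9435916-9459631, minus strand), had the fewest CTCF peaks of the 10 genes. In the order of the libraries above, its window held 5, 3, 4, 0 and 1, against medians over all genes of 7, 4, 3, 1 and 3. No CTCF peak of either library lay in the gene body or within 10 kb of its start. The nearest was a weak one in IL7-cultured pro-B cells, with its near edge 19.1 kb from the start and upstream of it, which scored above only 4.14% of its list. The best of the window lay 47.5 kb upstream in pre-B cells and was present in both CTCF lists, above 62.3% and 58.9% of them, with a pre-B Rad21 peak above 73.4% of its own. At the other end of the window, in Capsl, the gene next to Il7r, a site was called in both CTCF lists and in Rad21 of pre-B and DP cells.

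The promoter of Il7r carried a Rad21 peak in pre-B cells, at chr15:9459267-9460001. It scored above 24.6% of the pre-B list, and it overlapped no CTCF peak of either library and no Rad21 peak of DN or DP cells. The peak covered the match to TTCNNNGAA printed above, which begins 142 bases before the start of transcription. It fell out when scores under 100 were left out, since its own was 96.06. Thus the gene showed cohesin at its promoter without called CTCF in 1 of 3 cell types, near the lower end of that list.

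Jak1, the kinase of the α chain (chr4:100824972-100937887, minus strand), had 6, 5, 2, 2 and 8 peaks, and most sat in its long body or beyond its 3′ end. A pair of sites was called in all 5 libraries. The one inside Jak1, which touched no exon, lay 97.0 kb from the start in pre-B CTCF. It scored above 71.9% of the list for IL7-cultured pro-B CTCF, 87.1% for pre-B CTCF, and 89.9%, 73.3% and 91.4% for Rad21 in pre-B, DN and DP cells. The one in Raver2, whose motif is printed above, scored above 92.0% and 96.3% of the CTCF lists and above 77.8%, 11.2% and 84.8% of the Rad21 lists of pre-B, DN and DP cells. These lists differ in length, and by rank the Rad21 peaks were number 6756, 8616 and 5586.

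At the Jak1 promoter there was a Rad21 peak in DP cells, above 73.4% of the list, and no peak of the other libraries. DP cells also had Rad21 peaks inside Jak1 that overlapped no peak of another library, at 65.5, 77.7 and 82.2 kb from the start, and the strongest of these scored above 90.7% of its list. Of the 8 DP Rad21 peaks in the window, 4 overlapped a CTCF peak of pre-B or IL7-cultured pro-B cells, against 69.2% of the whole DP list. CTCF of DP cells was not analysed here, so whether the others had CTCF in DP cells was not tested.

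Jak3, the kinase bound to the common γ chain (chr8:74200195-74214474, plus strand), had 12, 8, 9, 4 and 7 peaks. None of them lay in the gene body or within 10 kb of its start. The nearest site, in an exon of Unc13a, was called in all 5 libraries and lay 15.4 kb upstream by its pre-B Rad21 peak. It scored above 88.0% and 91.0% of the CTCF lists and above 97.2%, 87.3% and 96.9% of the Rad21 lists. Another 3 sites of the window were called in all 5 libraries, 1 farther upstream in Unc13a and 2 downstream. The upstream one scored above 78.8 to 94.7% of the lists. The one at Fcho1 scored above 95.4% of the IL7-cultured pro-B list, the best CTCF peak of that list in the window, but its DN Rad21 peak scored above 8.67%, number 8767 of a short list. The last scored above 78.4 to 91.3% of the other lists and 42.0% of the DN list. Of the CTCF peaks in this window, 8 of 12 from IL7-cultured pro-B cells overlapped pre-B CTCF (58.6% of the whole list), and 8 of 8 from pre-B cells overlapped the IL7-cultured list (96.0%). A B-lineage CTCF peak lay under 7 of 7 DP Rad21 peaks (69.2%) and 4 of 4 DN ones (98.4%).

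**Figure D2:**
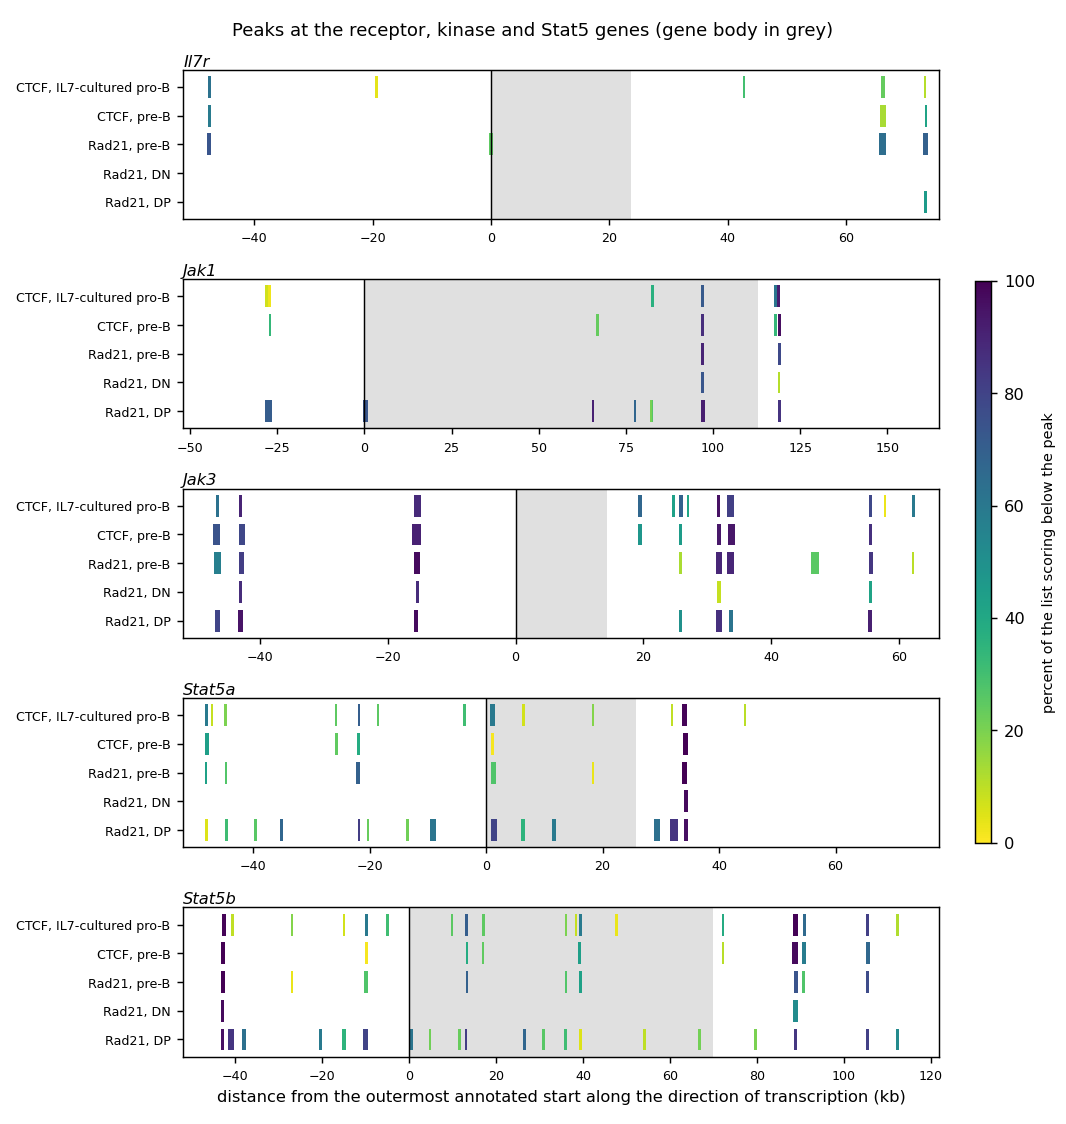
Position of each peak (distance in kb from the outermost annotated start, x axis) in 5 lanes, 1 for each library, at Il7r, Jak1, Jak3, Stat5a and Stat5b. Colour gives the percent of the list that scored lower, narrow peaks were widened to be visible, and the column of dark marks in all 5 lanes near 34.1 kb from Stat5a is the site in Stat3.

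Stat5a and Stat5b, the transcription factors of the pathway, lie side by side on chromosome 11 and are transcribed away from each other, with Stat3 beyond the 3′ end of Stat5a. Their windows overlap, so many peaks count for both. Stat5a (chr11:100720665-100746483, plus strand) had 13, 5, 6, 1 and 14, and Stat5b (chr11:100642045-100712038, minus strand) had 18, 9, 9, 2 and 20. The strongest pre-B peak of all the windows, for CTCF and for Rad21, was the site in Stat3. It was called in all 5 libraries and scored above 99.0% and 99.9% of the CTCF lists, and above 99.7%, 97.3% and 96.0% of the Rad21 lists of pre-B, DN and DP cells. Its CTCF peak in pre-B cells was number 22 of 42250. The site at Hcrt on the other side of the pair scored above 99.3% and 97.5% of the CTCF lists, and above 73.9%, 51.9% and 84.2% of the Rad21 lists.

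Between these sites the calls differed by library. No DN Rad21 peak was called between them. The body of Stat5b held 10 DP Rad21 peaks, 3 pre-B Rad21 peaks, 3 pre-B CTCF peaks and 7 CTCF peaks of IL7-cultured pro-B cells. The promoter of Stat5b had a DP Rad21 peak, above 61.1% of the list, and no peak of any other library. The promoter of Stat5a had a DP Rad21 peak above 80.0% of the list and a pre-B one above 27.5%. CTCF lay there in both libraries, above 59.7% of the IL7-cultured list and above 1.22% of the pre-B list, where it was among the lowest scores.

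The consensus matches at the outer sites of this pair lay on opposite strands. The 12 bases are the reverse of the form in which the CTCF motif is usually drawn, so a match on the plus strand was read as pointing to lower coordinates. Read in this way, the Hcrt match pointed away from Stat5b and the Stat3 match pointed away from Stat5a. In all 10 windows, 19 of 59 pre-B CTCF peaks (32.2%, interval 20.6 to 45.6%) held the consensus with at most 2 mismatches. The share was 48.3% over all pre-B CTCF peaks and 8.97% in sequence of the same length 2000 bp away. Of the 19 matches 8 were on the plus strand, 9 on the minus strand and 2 were tied. Paired with the genes whose windows held them they made 21 pairs, of which 10 pointed away from the gene, 7 towards it, 2 lay inside it and 2 were tied. None of the 7 pre-B CTCF peaks at Socs2 held a match at this limit, against 4 of 6 at Cish.

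Cish, the first of the inhibitors (chr9:107198357-107205115, plus strand), had 10, 6, 4, 5 and 4 peaks, and was the gene of the 10 with the most from DN cells. Each of 4 sites was called in all 5 libraries. The one 1.46 kb upstream by its DN peak scored above 88.8% and 80.3% of the CTCF lists and above 90.2%, 98.3% and 94.9% of the Rad21 lists of pre-B, DN and DP cells. The next, 4.94 kb upstream by its pre-B Rad21 peak, scored above 95.8% and 87.2% for CTCF and 97.2%, 94.3% and 97.0% for Rad21. The third, downstream in Hemk1, scored above 91.8% and 78.3% for CTCF and 73.0%, 96.5% and 97.7% for Rad21. The fourth lay at the upstream end of the window and scored above 43.1 to 70.0% of the lists.

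The start of Cish carried a Rad21 peak in DN cells that overlapped no other peak, at chr9:107198770-107199433, over an annotated UTR. Sites called for Rad21 in DN cells but not in pre-B or DP cells were rare, 144 of 46478 merged Rad21 sites or 0.310%, and this was the only one among the 100 in the 10 windows. It scored above 6.82% of the DN list, with a score of 90.92, and fell out when scores under 100 were left out. The peak held 4 matches to TTCNNNGAA, all printed above, in 2 pairs. It overlapped no CTCF peak of either library, and was 1 of 22 DN Rad21 peaks in the windows without a B-lineage CTCF peak, against 21 with one (95.5%, interval 77.2 to 99.9%, and 98.4% of the whole list).

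Socs1, an inhibitor that binds Jak kinases (chr16:10783901-10785629, minus strand), had 10, 4, 8, 3 and 18 peaks, and its promoter had a peak in all 5 libraries. The DP Rad21 peak there was 5379 bp long, so that it covered the whole gene and its surroundings. It scored 3100, above 99.9% of the list, a value that 28 peaks of this list shared. In the other libraries the same ground held separate peaks, over the gene and just upstream of it. The strongest in each list scored above 98.1% and 97.0% of the CTCF lists, and above 88.6% and 94.4% of the pre-B and DN Rad21 lists. Around it DP cells had many weaker Rad21 peaks, and 12 of the 24 sites in this window were called in DP Rad21 only, against 12.3% of all merged sites.

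Socs3, an inhibitor recruited to cytokine receptors (chr11:117827393-117831361, minus strand), had 15, 6, 3, 1 and 16 peaks. Its promoter was also called in all 5 libraries, above 92.1% and 88.9% of the CTCF lists and above 80.0%, 71.9% and 93.7% of the Rad21 lists. This was the only site of the window with a DN Rad21 peak. The DP Rad21 peak covered 2922 bp against 995 bp in pre-B and 501 bp in DN cells. Sites called in DP Rad21 only were 10 of 23, against the same 12.3%, but with Rad21 lists of equal length 2 of the 16 DP peaks at Socs3 and 3 of the 18 at Socs1 were left. The RefSeq promoter of Socs3 held a match to TTCNNNGAA that begins 154 bases before its start. Promoters of Il7r and Cish were the other two with a match, 3 of the 9 genes found in the RefSeq table, against 9.55% of 27025 genes.

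Socs2, an inhibitor best known for limiting growth hormone signals (chr10:94847996-94879814, minus strand), had 7, 7, 5, 1 and 3 peaks. Its site just upstream of the outermost start, beside a start of the neighbour 5730420D15Rik, was called in all 5 libraries, above 89.2% and 73.0% of the CTCF lists and above 93.2%, 71.2% and 37.9% of the Rad21 lists of pre-B, DN and DP cells. Other promoter sites of Socs2 ranked lower, the higher with pre-B Rad21 above 38.2% and DP Rad21 above 18.3% of the lists. Of 59 pre-B CTCF peaks in all windows 56 overlapped one of IL7-cultured pro-B cells (94.9%, against 96.0% of the whole list), and 2 of the other 3 were in the body of Socs2, above 11.0% and 5.53% of the pre-B list. The third was in Jak1, above 23.5%.

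Pim1, the survival kinase (chr17:29627757-29632390, plus strand), had 20, 11, 9, 4 and 4 peaks, the most CTCF peaks of the 10 genes in both libraries. At its start there were CTCF peaks in IL7-cultured pro-B cells, the higher above 51.6% of the list, and a Rad21 peak in pre-B cells above 33.9%. The pre-B CTCF list had none there. Inside the gene, at the promoter of the second start that RefSeq gives, a site was called in all 5 libraries. It scored above 84.1% and 64.3% for CTCF and above 65.2%, 0.155% and 73.9% for Rad21 in pre-B, DN and DP cells. The DN list is the shortest, and by rank the DN peak was number 9686 of its list and the pre-B one number 10592. Downstream of the gene lay 3 sites called in all 5 libraries. The nearest one, 22.6 kb from the start, scored above 82.3% and 94.1% of the CTCF lists and above 99.0%, 93.7% and 96.6% of the Rad21 lists. The next scored above 94.8% and 91.6% for CTCF and above 94.1%, 68.2% and 94.1% for Rad21. The farthest, in Tmem217, scored above 78.5% and 58.9% for CTCF and above 59.5%, 87.7% and 93.6% for Rad21. No site of the window was called in DP Rad21 only.

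**Figure D3:**
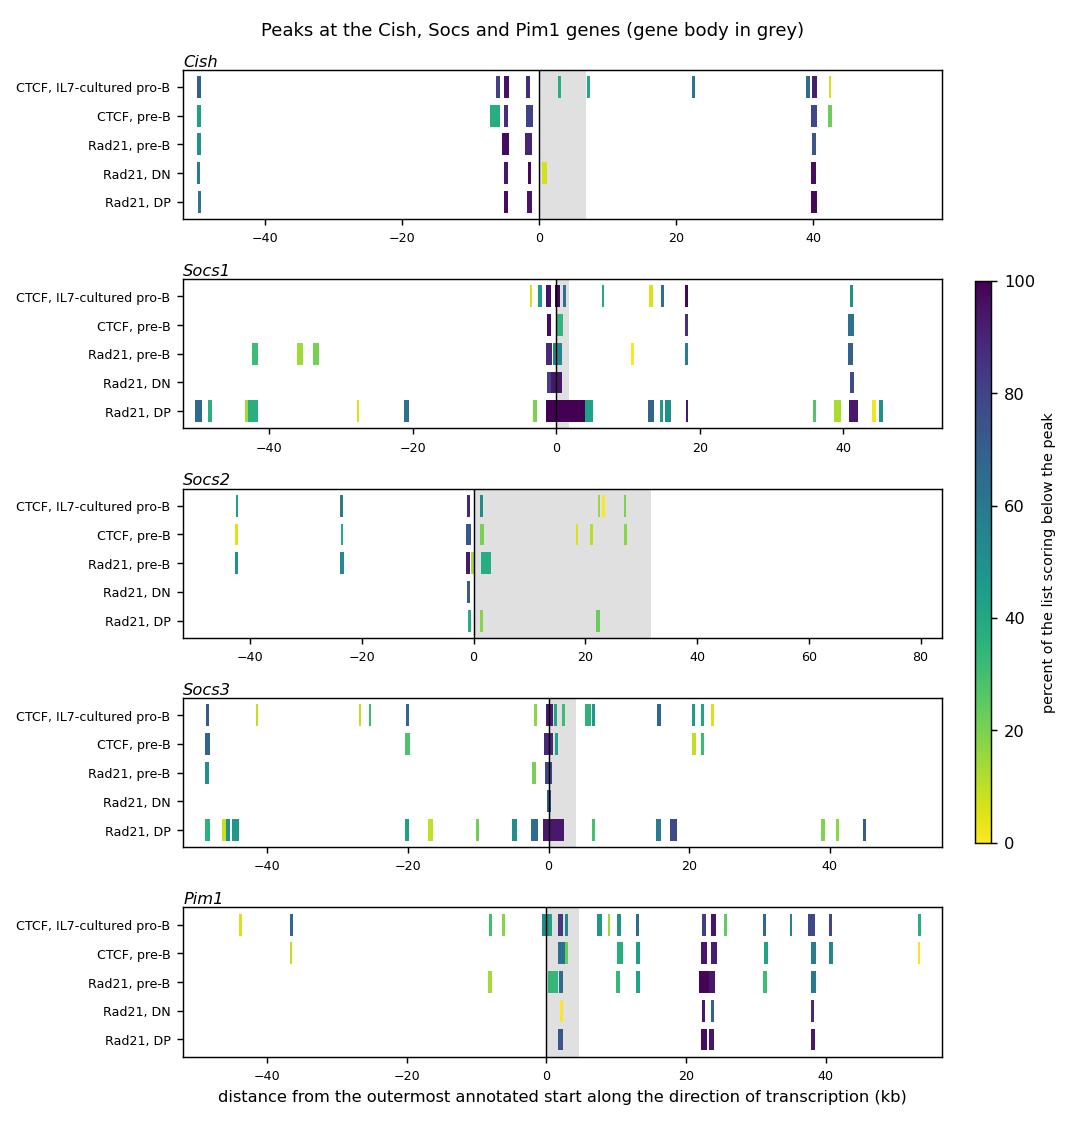
The same plot for Cish, Socs1, Socs2, Socs3 and Pim1, with distance in kb from the start on the x axis and 5 lanes of peaks coloured by the percent of the list that scored lower. The wide dark DP Rad21 mark at Socs1 is the peak of 5379 bp, and the single DN mark inside Cish is the peak with 4 matches to TTCNNNGAA.

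CTCF at the pathway's genes was compared between IL7-cultured pro-B cells and pre-B cells. These cells differ in both genotype and culture, so an effect of the supplied cytokine was not tested. Of the 104 CTCF peaks of IL7-cultured pro-B cells in the 10 windows, 57 overlapped a pre-B peak (54.8%, interval 44.7 to 64.6%, against 58.6% of the whole list). In the other direction 56 of 59 pre-B peaks overlapped one of IL7-cultured pro-B cells (94.9%, interval 85.9 to 98.9%, against 96.0%). Both shares were near those of the whole lists. The peaks called in IL7-cultured pro-B cells alone ranked low in that list. Their median was above 25.1% of it, and that of the overlapping ones above 67.1%, close to 23.8% and 70.5% over the whole list.

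**Figure D4:**
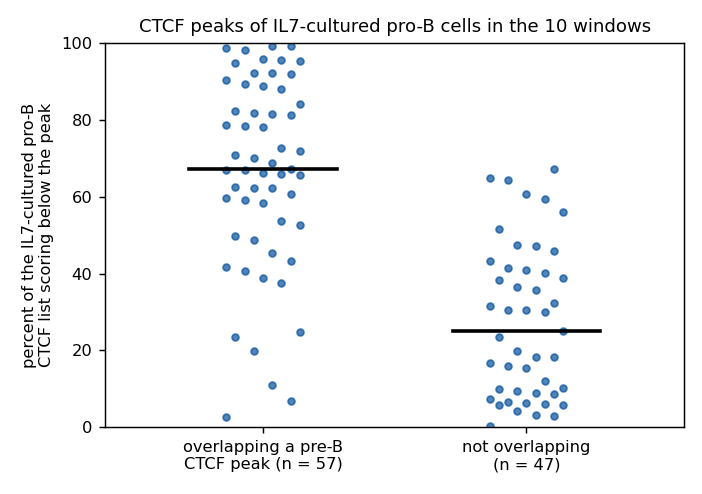
Each point is a CTCF peak of IL7-cultured pro-B cells in the 10 windows, with the percent of its list that scored lower on the y axis and a bar at the median. The 57 peaks that overlap a pre-B peak have a median of 67.1% and the 47 others a median of 25.1%, with none of these above 67.1%.

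The IL7-cultured list is the longer one, and the lists were therefore also compared at 1 length. When it was limited to its 42250 best peaks, the same number as the pre-B list, the windows held 62 peaks of IL7-cultured pro-B cells and 59 of pre-B cells. The overlaps were then 79.0% and 81.4%, against 85.5% and 84.8% of those lists. At Il7r the count changed from 5 to 1, with 3 in pre-B cells, at Pim1 from 20 to 14, with 11, and at Jak3 from 12 to 11, with 8. CTCF at the promoter of Pim1 in IL7-cultured pro-B cells was kept in this shorter list.

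The comparison of Rad21 in pre-B, DN and DP cells gave 100 merged sites in the 10 windows. Of these 20 were called in all 3 cell types (18.7% of all merged Rad21 sites), 14 in pre-B and DP cells (25.1%) and 18 in pre-B cells alone (20.6%). Sites of DP cells alone were the most frequent, 47 (interval 36.9 to 57.2%, against 33.6%), and 0 sites were called in DN cells and just 1 other cell type (0.831% with pre-B and 0.940% with DP cells). The sites of DP cells alone were unevenly spread over the genes. There were 14 at Socs1, 13 at Socs3, 13 at Stat5b, 9 at Stat5a, 6 at Jak1 and 1 at Socs2, and none at Il7r, Jak3, Cish or Pim1. All 9 at Stat5a were also counted at Stat5b. Sites of pre-B cells alone were most frequent at Pim1, with 5.

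**Figure D5:**
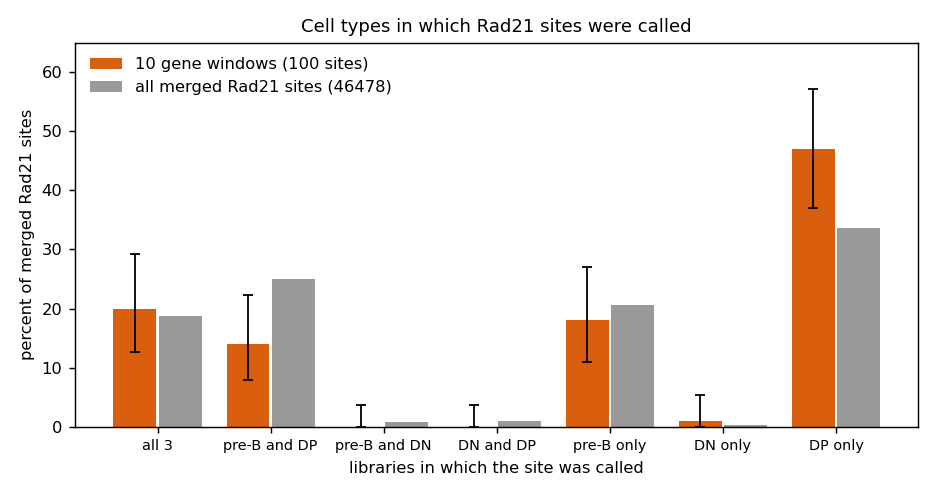
Percent of merged Rad21 sites (y axis) by the libraries in which they were called (x axis), for the 100 sites in the 10 windows (orange, bars give exact 95% intervals for counting error) and for all 46478 (grey). Sites called in DP cells alone made up 47% of the former and 33.6% of the latter.

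Many of the DP sites were not among the best of their list. With each Rad21 list limited to 9701 peaks, the length of the DN list, 32 merged sites remained in the windows, of which 16 were called in all 3 cell types (50%, against 33.2% of all) and 6 in DP cells alone (18.8%, against 15.6%). DP Rad21 peaks then fell from 18 to 3 at Socs1, from 16 to 2 at Socs3, from 20 to 6 at Stat5b and from 14 to 4 at Stat5a. The promoter peaks of Jak1 and Stat5b in DP cells and of Il7r in pre-B cells were not in these shorter lists, while those of Socs1 and Socs3 were in all 3.

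CTCF and Rad21 were both profiled in pre-B cells. Of 59 pre-B CTCF peaks, 40 overlapped a pre-B Rad21 peak (67.8%, interval 54.4 to 79.4%, against 63.5% of the list), and their median was above 67.1% of the CTCF list against 23.5% for the 19 others. Over the whole list these medians were 66.8% and 23.3%. Of 53 pre-B Rad21 peaks, 40 overlapped a pre-B CTCF peak (75.5%, interval 61.7 to 86.2%, against 88.1%), and 46 overlapped one of either B-lineage library (86.8%, against 92.4%). Of 81 DP Rad21 peaks, 44 overlapped a CTCF peak of either B-lineage library (54.3%, interval 42.9 to 65.4%, against 69.2%), but 24 of 26 did in the list limited to 9701 peaks (92.3%, against 91.9% of that shorter list). The 37 without one had a median above 36.4% of the DP list and the 44 with one a median above 79.8%, against 31.3% and 60.2% over the whole list.

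Sites called in all 5 libraries made up 20 of the 145 (13.8%, interval 8.63 to 20.5%, against 10.3% of all sites). Each gene but Il7r had at least 1, with 4 each at Jak3, Cish and Pim1. The share of all gene windows with such a site was not computed. Another 36 of the 145 were called in DP Rad21 alone (24.8%, interval 18.0 to 32.7%, against 12.3%, but 3 of 74 or 4.05% against 1.99% with lists of equal length), and 29 in CTCF of IL7-cultured pro-B cells alone (20%, interval 13.8 to 27.4%, against 30.1%). The share of peaks with a match to TTCNNNGAA was 19.2% for IL7-cultured pro-B CTCF (11.6% of the whole list), 16.9% for pre-B CTCF (16.7%), and 22.6%, 22.7% and 19.8% for Rad21 in pre-B, DN and DP cells (17.2%, 13.0% and 15.1%). The peaks of the windows were also longer, with means of 487 against 434 bp for IL7-cultured pro-B CTCF and 791 against 593 bp for DP Rad21, and the part of length in these shares was not tested. No map of enhancers was used here, so sites away from promoters are given by distance alone.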

How the data were processed

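ChIP-seq peaks of 5 libraries were used, with 1 library per group. Per the methods, the authors removed adapters and duplicates, mapped the reads on mm9 by Bowtie (0.12.9 in the submitters' processing notes, a later version in the methods), kept reads that mapped to as many as 3 places, and called confident peaks with MACS 1.4.2 against an input of the same cells. CTCF and Rad21 of pre-B cells share 1 input. The deposited value of each peak is a score that MACS derives from its p-value, with the sign and scale of −10 log10 p, and it grows with depth. Reads that fit several places may raise peaks in near-identical copies.

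Genes are GENCODE M1 on NCBIM37 (mm9). A peak was in a window or shared with at least 1 bp of overlap, at a promoter within 1000 bp of any annotated start, and placed by its midpoint otherwise. Percents of a list scoring lower leave ties out. The CTCF consensus was searched on both strands with at most 2 mismatches, and TTCNNNGAA on both strands with none. RefSeq promoters (GRCm38.p6, 250 bases before to 50 after a start) matched 9 of 10 genes. The genes named were the members and, as neighbours, genes that hold a named peak, and the sites named were promoter peaks, the top peak of each list, sites called in all libraries and sites called in some of them. Members and lists were chosen with earlier results of these data known. The scripts were tested on simulated data. Python 3.11.15, numpy 2.4.6, scipy 1.17.1 and matplotlib 3.10.9 were used.

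Alternatives were scores of at least 100, lists of equal length (the shortest per antibody, or the shorter of the pre-B CTCF and Rad21 lists where these were compared), flanks of 20 and 100 kb, peak midpoints, overlap of 50% of the shorter peak, a promoter of 2500 bp and 1 or 3 mismatches. Chosen after seeing the data were promoters by the outermost start alone and the alternatives for Rad21 peaks (pre-B, DP) that overlap CTCF and for sites merged over 5 libraries.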

Additional observations from a re-analysis of the deposited data

How the results depend on the processing

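With 1 library per group no replicate could be left out, and no spread between animals is known. No paired analysis was possible because each group has 1 library and no result comes from a test. Leaving out scores under 100, counting by peak midpoint, asking for 50% overlap, a promoter of 2500 bp and the outermost start alone (added later) each kept the counts summed over the 10 genes within 1.5 times and the shares inside their intervals, for the values on which they were run (midpoints for counts of peaks, overlap for shares). Counts of single genes moved more: with scores of at least 100, 11 of 50 went past 1.5 times, such as CTCF of IL7-cultured pro-B cells at Il7r, from 5 to 2, and DP Rad21 at Socs3, from 16 to 10, and with lists of equal length 21 of 50 did. Lists of equal length moved the most values. CTCF peaks of IL7-cultured pro-B cells in the windows were then 62, Rad21 peaks 22 in pre-B and 26 in DP cells, and promoters with Rad21 3 in pre-B and 3 in DP cells. The CTCF overlaps were 79.0% and 81.4%, that of pre-B CTCF with Rad21 81.8% (both lists limited to 30488 peaks, with 78.9% over all CTCF peaks so limited), and that of DP Rad21 with either CTCF list 92.3%. Merged Rad21 sites in the windows were then called in all 3 cell types in 50% and in pre-B and DP cells in 6.25%. They were called in pre-B cells alone in 9.38% and in DP cells alone in 18.8%. Over all merged sites of these shorter lists the shares were 33.2%, 6.50%, 14.8% and 15.6% in the same order. The shares in the windows rest on 32 sites. Pre-B Rad21 peaks with either CTCF list were then 100% (22 of 22), and the share over the whole shorter list was not computed. Sites in all 5 libraries were 21.6% (against 10.3% of all sites so limited) and sites of DP Rad21 alone 4.05% (against 1.99%). A flank of 20 kb gave 38 pre-B CTCF, 32 pre-B Rad21 and 53 DP Rad21 peaks, and one of 100 kb gave 198 and 113 CTCF peaks in IL7-cultured pro-B and pre-B cells and 96, 43 and 144 Rad21 peaks in pre-B, DN and DP cells, since the windows were smaller or larger. With 1 mismatch 6.78% of pre-B CTCF peaks in the windows held the consensus, and with 3 mismatches 84.7%. Of the values under an alternative, 26 moved and 92 did not. Read depth is unknown for all lists, so an absent peak, above all in the DN list, cannot be told apart from one below its limit.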
